A study of Arabidopsis thaliana with 4 samples.

Results

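The response of wild type Arabidopsis thaliana seedlings to the plant hormone abscisic acid (ABA) was followed across all genes. It used 6 of the 12 RNA sequencing libraries of the series: 3 libraries of Col-0 wild type seedlings after 12 h of ABA, and 3 of Col-0 wild type seedlings that received none. The other 6 libraries came from a mutant of the noncoding RNA lincRNA11195 in the same Col-0 background, with and without ABA, and entered only the estimate of the spread between replicates and the test of whether the responses of the genotypes differed. Seedlings were 2 weeks old and grew on MS-based medium, a mineral nutrient medium at reduced strength. The series text names the 3 libraries of a group biological replicates but does not say whether they came from separate cultures, so p-values measure the spread between these samples. The dose of ABA, how it was given, whether the untreated plants received a mock solution, and the hour of harvest are not stated by the labels. Whole seedlings were used, so a lower level may mean fewer cells of a type or less RNA per cell, which cannot be told apart in bulk RNA.

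ABA accumulates when plants run short of water. It binds PYR/PYL receptors, which then hold back the PP2C phosphatases, and this frees SnRK2 kinases to phosphorylate transcription factors of the ABF and ABI5 type. Those factors bind ABA-responsive elements (ABREs), promoter motifs built around ACGTG. The hormone is known for closing stomata, for slowing shoot and root growth and for setting seed dormancy. The genes of this pathway itself and its classic dehydration markers were set aside as a core list of 79 genes, of which 68 were tested. The gene lists below concern pathways and gene families beyond it and share 4 genes with it: 3 NAC factors and P5CS1 of proline synthesis. Counts over all genes, promoter shares and families formed from gene symbols or products keep the core genes. Of the tested core genes 57 were called higher and 9 lower.

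The wild type ABA libraries held 20695204 to 21861665 counts and the wild type untreated libraries 18250616 to 19338277. The 100 genes with most counts took 10.67% to 11.64% of counts with ABA and 17.26% to 18.03% untreated. Levels are in CPM, each library's counts scaled to a common total and by TMM factors, and tests are edgeR quasi-likelihood tests with Benjamini-Hochberg adjustment over the 21322 genes tested. At an adjusted p under 0.05, 53.4% of these genes were called, 25.2% higher (5376 genes) and 28.2% lower (6012 genes) with ABA, and the median log2 fold change of all genes was -0.03. Scaling by library totals alone put that median at 0.17 and gave 7116 higher and 4504 lower genes, or 61.2% higher among the calls against 47.2% in the main fit. Every count below is therefore relative to the TMM scale, and a list is read against the 25.2% and 28.2% of all genes. Where correction for gene length and GC content moved a named gene's fold change by over 1.5-fold or its log2 by over 1.5 times, the log2 fold change after correction is given too, marked as corrected. Beyond 2-fold, 2271 called genes were higher and 3260 lower, and beyond 8-fold 353 and 355.

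One untreated library stood apart for strongly raised genes. Of the 353 genes called higher beyond 8-fold, 230 (65.2%) had their highest untreated value in wild type untreated replicate 1, compared with 26.7% of all genes tested. In the 12 largest rises described below, replicate 1 was the highest untreated library in all 12 and held 1.11% to 3.99% of the mean level with ABA. Whether this reflects the plants or the handling of the library was not tested. Without that library 4720 genes were higher and 5408 lower.

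The promoters of 4 strongly raised genes are shown because they hold the ABRE-type motif, which stood in a larger share of windows of raised than of lowered genes. Each window is the 250 bases before the annotated gene start, 5′ to 3′ on the gene's strand, read from the RefSeq TAIR10.1 assembly with its own annotation. Capitals mark matches to ACGTGNC on either strand, so GNCACGT is a match read from the other strand.
AT5G28520: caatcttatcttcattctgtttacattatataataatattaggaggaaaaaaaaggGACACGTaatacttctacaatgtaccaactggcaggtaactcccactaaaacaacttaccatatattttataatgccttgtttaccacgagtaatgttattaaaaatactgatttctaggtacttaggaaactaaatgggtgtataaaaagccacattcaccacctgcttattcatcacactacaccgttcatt
AT4G33467: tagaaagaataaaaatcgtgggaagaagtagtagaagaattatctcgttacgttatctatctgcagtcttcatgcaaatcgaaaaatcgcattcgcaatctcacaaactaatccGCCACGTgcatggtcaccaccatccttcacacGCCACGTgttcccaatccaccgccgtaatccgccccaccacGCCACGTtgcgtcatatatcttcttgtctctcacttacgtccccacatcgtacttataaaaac
AT5G24080: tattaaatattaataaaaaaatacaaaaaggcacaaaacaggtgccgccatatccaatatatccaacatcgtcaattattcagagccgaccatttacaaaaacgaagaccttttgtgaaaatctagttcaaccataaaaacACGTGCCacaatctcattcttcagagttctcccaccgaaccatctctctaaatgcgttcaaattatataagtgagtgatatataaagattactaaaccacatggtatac
NADP-ME1: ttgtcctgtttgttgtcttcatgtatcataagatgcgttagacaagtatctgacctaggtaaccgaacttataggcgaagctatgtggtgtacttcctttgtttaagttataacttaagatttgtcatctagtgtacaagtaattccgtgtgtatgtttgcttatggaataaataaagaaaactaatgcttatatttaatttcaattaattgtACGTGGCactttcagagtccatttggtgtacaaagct
AT5G28520 lies on the plus strand of chromosome 5 and its match begins 194 bases before the gene start. AT4G33467 lies on the minus strand of chromosome 4 and holds 3 matches, at 136, 104 and 63 bases before the start. AT5G24080 is on the minus strand of chromosome 5 with its match at 109 bases, and NADP-ME1 on the minus strand of chromosome 2 with its match at 37 bases. A match describes these letters and does not show that a factor binds there.

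Genes with such motifs were raised more often. Windows from 250 bases before to 50 bases after the annotated start were searched for 20536 tested nuclear protein-coding genes, on both strands. Core list genes were included. ACGTGNC stood in 17.3% of the windows of genes called higher (904 of 5214), in 8.8% of those called lower (516 of 5883) and in 11.6% of all windows. Among genes higher beyond 8-fold the share was 37.8% (128 of 339), and among genes lower beyond 8-fold it was 5.9% (20 of 340). The share of genes called higher was 23.7% with no match, 35.7% with 1 match, 42.6% with 2 and 55.2% with 3 or more, while the share called lower was 29.6%, 22.3%, 20.2% and 16.2% in the same order. Overlapping matches were counted separately, so 1 site that matches on both strands counts as 2. The G box CACGTG, which overlaps ACGTGNC where the letters allow, stood in 13.8% of windows of higher genes, 6.6% of lower genes and 8.8% of all.

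Motifs known from growth genes were less frequent in windows of higher genes than of lower ones over all calls, but not among the largest changes. The telo box AAACCCTA, common in promoters of ribosomal protein genes, stood in 2.9% of windows of higher genes, 8.3% of lower genes and 5.3% of all. Site II, TGGGCC, stood in 13.9%, 20.2% and 18.2% in that order. Beyond 8-fold the telo box stood in 3.2% of windows both of higher and of lower genes, and site II in 8.6% of higher and 5.9% of lower. The shares of the W box core TTGACC (14.5%, 13.9% and 14.4%), the heat shock element type GAANNTTC (11.7%, 11% and 11.4%), the I box GATAAG (15.3%, 14.6% and 14.7%), the DRE type ACCGAC (6.7%, 5.5% and 6.2%), the evening element AAATATCT (6.5%, 5.5% and 5.9%) and the MSA core AACGG (24.2%, 26.1% and 25.7%) lay closer together over all calls. Beyond 8-fold the W box core stood in 10% of windows of higher genes and 15.6% of lower genes, and the DRE type in 8.0% and 4.1%. These shares are descriptions, and base composition was not matched between the sets.

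**Figure D1:**
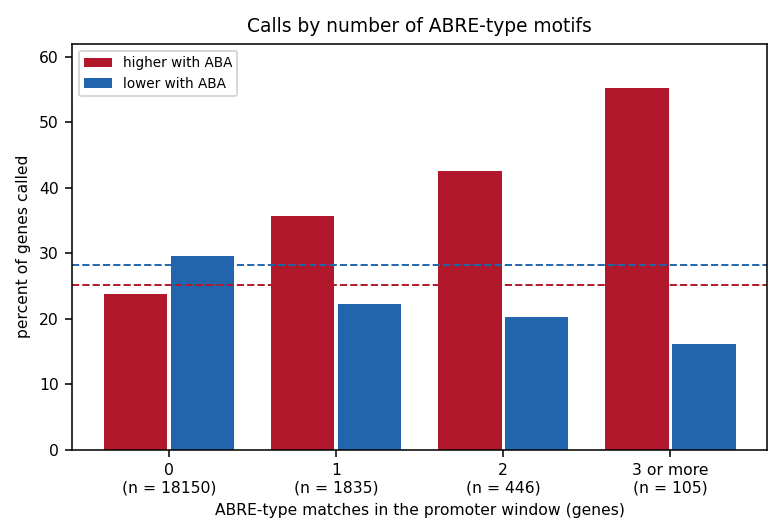
Share of genes called higher and called lower with ABA (y axis, percent) by the number of ABRE-type matches in the promoter window (x axis, number of genes below each pair of bars). Dashed lines give the shares of all tested genes, 25.2% higher and 28.2% lower. The share higher goes through 23.7%, 35.7%, 42.6% and 55.2% as matches increase. Overlapping matches on opposite strands are counted separately.

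Outside the core list, the largest rises were in transcripts close to absent without ABA, and each gene is given with its log2 fold change ± standard error. AT5G28520, a mannose-binding lectin gene, had 114, 97.9 and 65.1 CPM with ABA, against 1.4, 0.0616 and 0 CPM untreated (log2 fold change 7.52 ± 0.61, adjusted p = 1.1e-06). AT4G33467, of uncharacterised product, had 151, 85.5 and 79 CPM with ABA, against 1.98, 0.0616 and 0 CPM untreated (log2 fold change 7.23 ± 0.85, adjusted p = 2.25e-05). AT5G24080, a protein kinase gene, had 29.6, 23.7 and 23.4 CPM with ABA, against 0.408, 0.185 and 0.12 CPM untreated (log2 fold change 6.7 ± 0.41, adjusted p = 1.44e-07). In each of these genes all 3 ABA libraries lay above all 3 untreated ones, and replicate 1 was the highest untreated library. Such separation was a condition for naming the largest changes, and it held in this direction in 30.3% of all genes tested. NADP-ME1, for a cytosolic malic enzyme that makes NADPH, had 252, 220.3 and 209 CPM with ABA, against 6.06, 0.616 and 0.421 CPM untreated (log2 fold change 6.57 ± 0.87, adjusted p = 5.64e-05). LTP4, for a secreted lipid transfer protein, had 104, 113 and 92.8 CPM with ABA, against 1.81, 0.369 and 0.12 CPM untreated (log2 fold change 7.04 ± 0.71, adjusted p = 6.12e-06), and the beta-glucosidase gene BGLU24 had 286, 317 and 266 CPM with ABA, against 7.29, 0.431 and 0 CPM untreated (log2 fold change 6.8 ± 1.02, adjusted p = 0.000143). By the same condition the groups did not overlap in these either. Without wild type untreated replicate 1 the log2 fold changes of these 6 genes were 11.29, 11.48, 7.33, 8.76, 8.69 and 10.37 in the order given. The other 2 untreated libraries together held 1 count each of AT5G28520 and AT4G33467, so such values do not bound the change.

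The other 6 of the 12 largest rises were HSP22 (a small heat shock protein, 8.03), SWEET15 (a sugar exporter, 7.1), CSLG2 (cellulose synthase-like, 6.37), AT5G15500 (an ankyrin repeat protein, 6.28), AT5G50360 (annotated as a von Willebrand factor A domain protein, 6.24) and AT3G17520 (a late embryogenesis abundant protein, 6.2, corrected 6.87). Their log2 fold changes without wild type untreated replicate 1 were 14.69, 9.14, 7.13, 6.40, 10.41 and 12.12, and HSP22 then had 0 counts in both untreated libraries left, so its value rests on the model's treatment of 0. An ABRE-type motif stood in the windows of 8 of the 12 largest rises and in none of the 12 largest falls. Of all windows 11.6% held it, and these 24 genes were picked for their size of change. None of the 24 genes passed the test of a difference between the genotypes.

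The largest falls included genes of iron uptake and of the cell wall. AT1G15125, for a methyltransferase-like protein, had 0, 0.239 and 0.301 CPM with ABA, against 32.7, 27.1 and 51.9 CPM untreated (log2 fold change -7.6 ± 0.57, adjusted p = 6.01e-07, corrected -6.84). AT1G26250, for a proline-rich extensin-like wall protein, had 0.148, 0.335 and 0.129 CPM with ABA, against 27.9, 20.4 and 59.8 CPM untreated (log2 fold change -7.43 ± 0.51, adjusted p = 3.22e-07, corrected -6.595). IRT1, the main iron transporter of the root surface, had 0.296, 0.382 and 0.301 CPM with ABA, against 32.2, 77.9 and 28.7 CPM untreated (log2 fold change -7.12 ± 0.62, adjusted p = 1.84e-06). All ABA libraries lay below all untreated ones, which the choice of these genes required and which held by any margin in 32.3% of all genes tested. IRT1 was highest in untreated replicate 2. UGT72E1, for an enzyme that glucosylates monolignol-type phenolics, had 0.838, 0.86 and 0.86 CPM with ABA, against 32, 45.1 and 33.8 CPM untreated (log2 fold change -5.43 ± 0.28, adjusted p = 6.38e-08). AT1G27020, whose product the annotation does not describe, was the most abundant of these genes untreated, with 1.58, 1.67 and 2.32 CPM with ABA, against 104, 89.1 and 109 CPM untreated (log2 fold change -5.75 ± 0.20, adjusted p = 6.04e-09). Without wild type ABA replicate 3 AT1G15125 was at -8.19, and without wild type untreated replicate 2 IRT1 was at -6.47.

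The remaining large falls were MEE3, for a homeodomain-like protein (-6.26), AT5G46890, of the family that holds protease inhibitors, lipid transfer proteins and seed albumins (-6.16, and -7.91 without wild type ABA replicate 3), AT1G05700, a leucine-rich repeat kinase (-6.06), AT1G06830, a glutaredoxin (-5.94), AT3G16660, a pollen Ole e 1 family protein (-5.52, corrected -4.85), AT5G62360, an inhibitor of invertase or pectin methylesterase (-5.48), and AT1G75960, an AMP-dependent synthetase (-5.47, corrected -4.75). These rules left out 11 higher and 9 lower genes with fewer than 10 counts in the lower group, whose folds are poorly bounded.

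**Figure D2:**
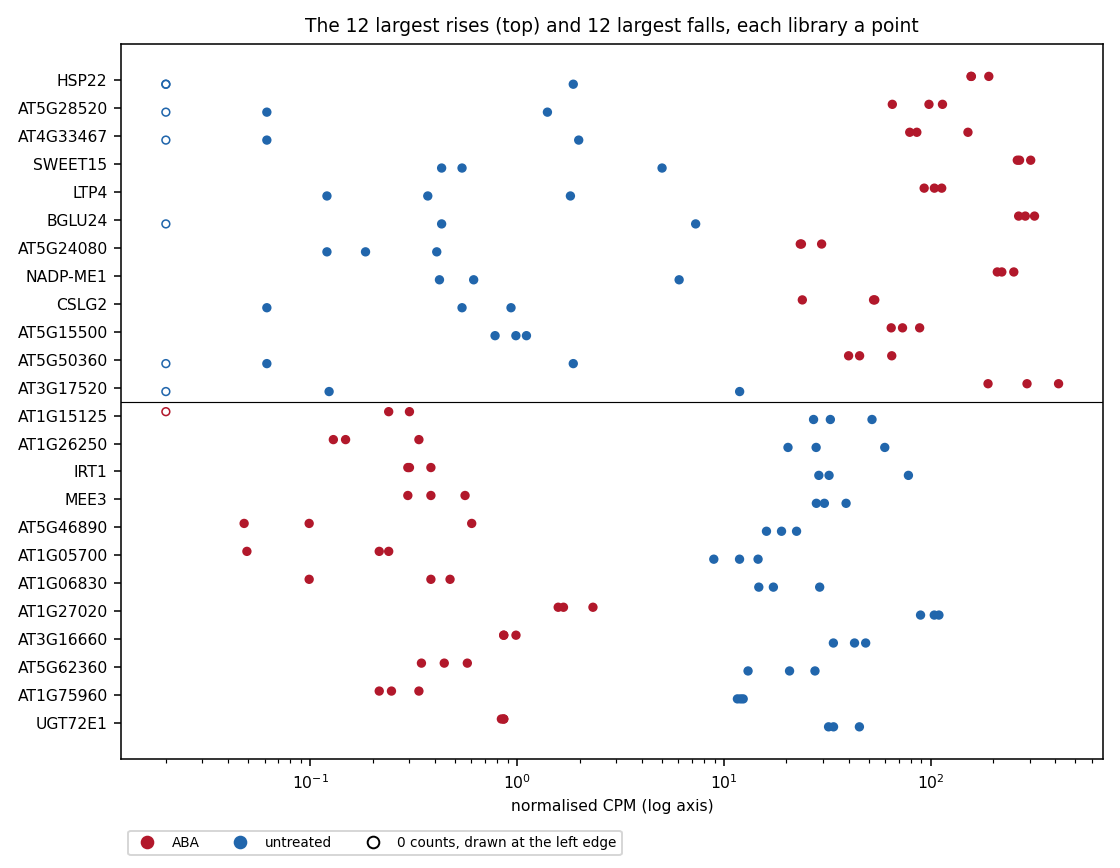
Normalised CPM on a log axis for the 12 largest rises (above the line) and the 12 largest falls (below it), with ABA libraries in red and untreated libraries in blue, 1 point per library. Open points at the left edge are libraries with 0 counts. In the rises replicate 1 is the rightmost blue point in all 12, and in most of them it stands well to the right of the other untreated libraries.

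Gene lists then grouped the genes by pathway, family and cell type. Among lists with at least 10 tested members, those with the highest share raised were autophagy, heat shock factors, chlorophyll breakdown, breakdown of branched-chain amino acids and lysine, and suberin synthesis. Those with the highest share lowered were photosystem subunits, the Calvin cycle, arabinogalactan proteins, tonoplast aquaporins, histones and ribosome biogenesis. The lists hold 2052 different matched genes outside the core list, of which 1798 passed the filter on low counts, and a gene that passed only through the group where it is high was bound to differ. In what follows, the value in brackets after a list's counts is the median log2 fold change of its tested members, to be read against -0.03 for all genes, and a single gene's value is its log2 fold change ± standard error. The balance of some lists turned with the scaling. With library totals more members were higher than lower among BBX factors (7 and 5), XTH genes (10 and 7), cellulose synthase-like genes (8 and 7), cysteine-rich kinases (10 and 8), gibberellin genes (10 and 9), primary wall cellulose genes (3 and 1) and flower genes (3 and 1).

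**Figure D3:**
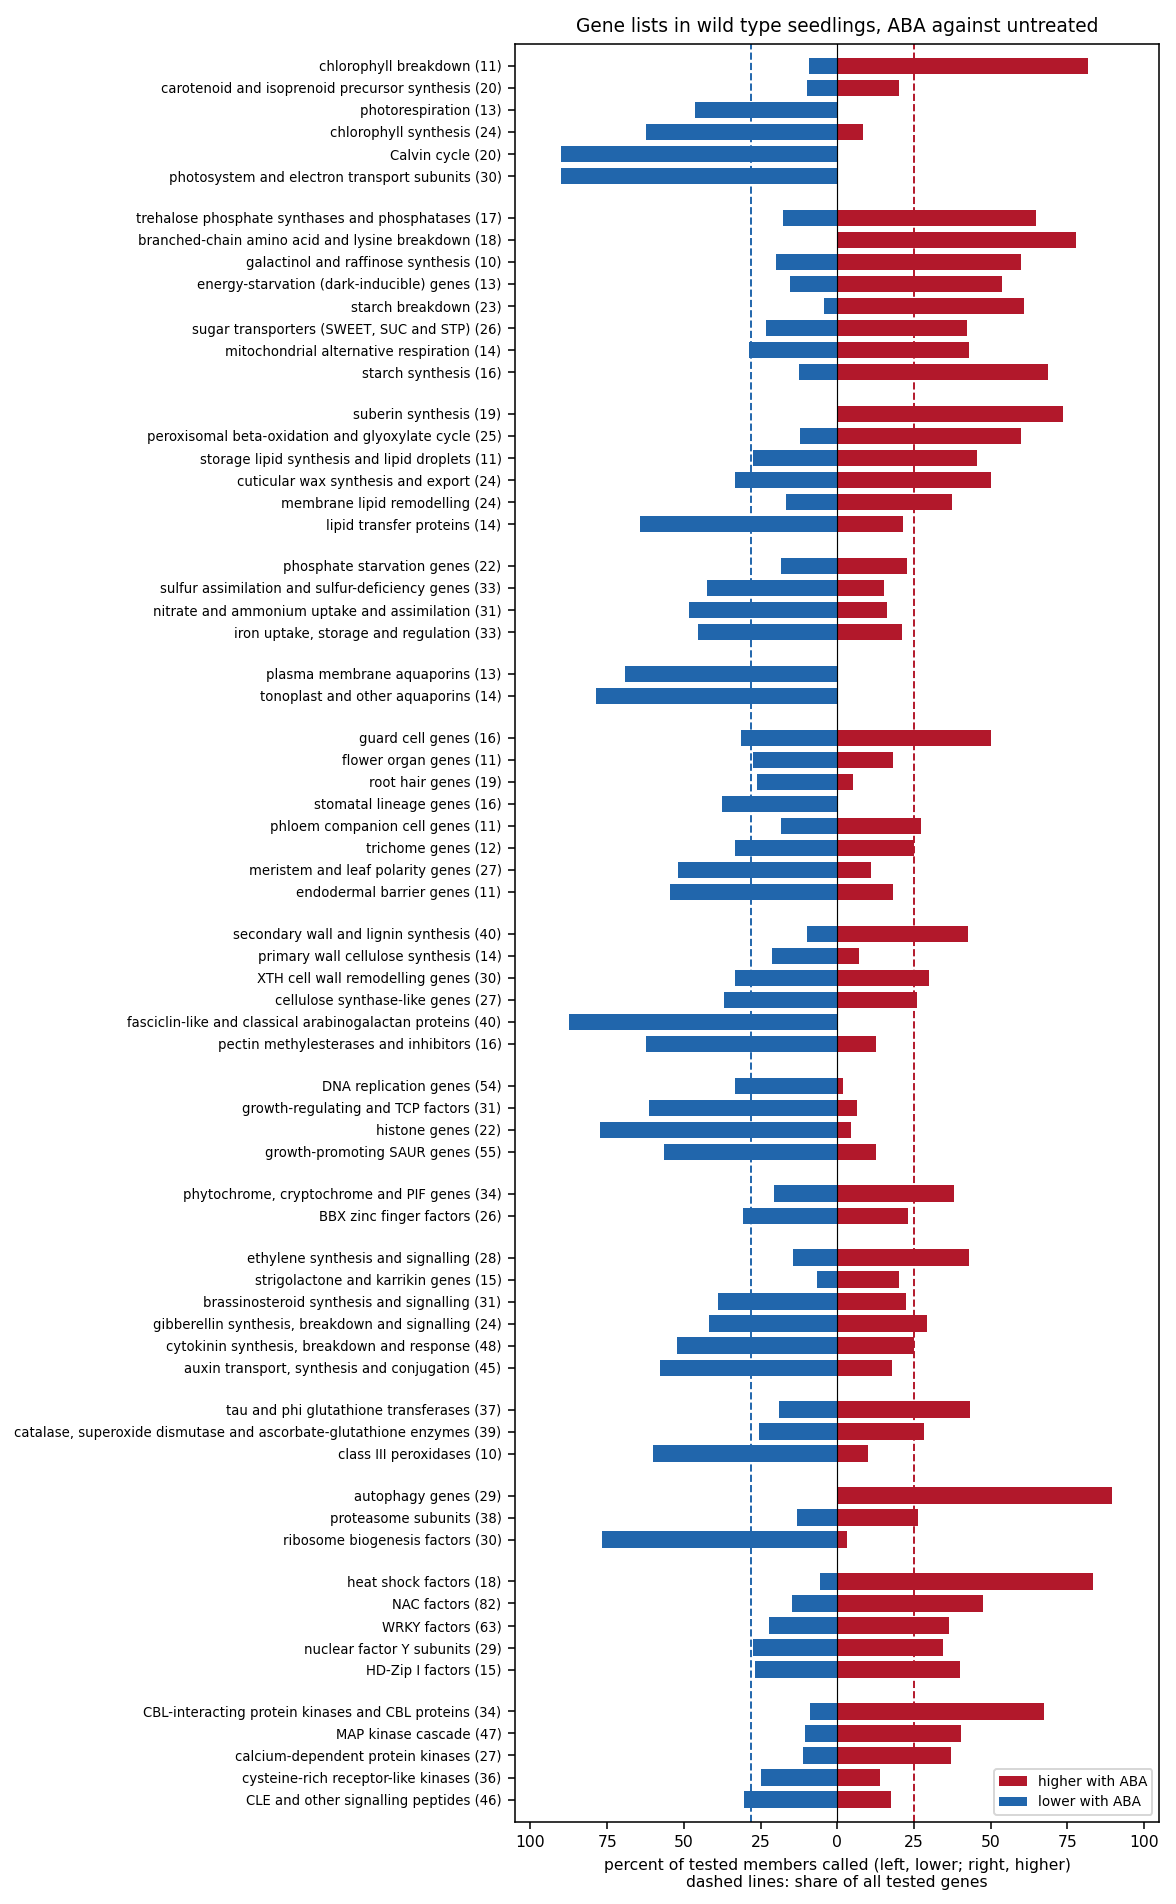
Percent of tested members called lower (left, blue) and higher (right, red) with ABA for each gene list with at least 10 tested members, grouped by area, with the number tested in brackets. Dashed lines are the shares of all tested genes, 28.2% lower and 25.2% higher. Autophagy reaches furthest to the right and photosystem subunits and the Calvin cycle furthest to the left.

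In the chloroplast, the machinery of carbon fixation fell and chlorophyll breakdown rose. Of 20 Calvin cycle genes 18 fell and none rose (median log2 fold change -1.54), and of 30 photosystem and electron transport genes 27 fell and none rose (-1.58). FBA1, a plastid aldolase, had 95.2, 89 and 76.8 CPM with ABA, against 1223, 1273 and 1173 CPM untreated (log2 fold change -3.81 ± 0.34, adjusted p = 2.39e-06). PSBY, a small photosystem II subunit, had 107, 118 and 92.3 CPM with ABA, against 559.6, 626 and 560.4 CPM untreated (log2 fold change -2.46 ± 0.18, adjusted p = 6.01e-07). FD1, for a ferredoxin that carries electrons from photosystem I, had 72, 63 and 58.2 CPM with ABA, against 292, 289 and 241 CPM untreated (log2 fold change -2.09 ± 0.18, adjusted p = 2.1e-06, corrected -0.999). The groups stood apart in all 3 genes. FBA2 and CP12-1, a second aldolase and a redox switch of the cycle, changed by -3.24 ± 0.31 and -2.3 ± 0.20, and PSB27 by -1.98 ± 0.19. FBA2 was at -2.48 corrected.

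Of 13 photorespiration genes 6 fell and none rose (-0.50), led by the glycolate oxidases GOX1 (-1.14 ± 0.26) and GOX2 (-0.78 ± 0.21, corrected -0.41), which lie next to each other and are near-identical, and by the carrier gene DIT1 (-1.42 ± 0.24, corrected -0.73). Chlorophyll synthesis had 15 of 24 genes lower and 2 higher (-0.59): CHLM, a methyltransferase of the pathway, fell (-1.37 ± 0.14) with HEMB1 (-1.28 ± 0.18) and HEMC (-0.98 ± 0.19), while CH1, the oxygenase that makes chlorophyll b, rose (0.73 ± 0.12). Of 11 chlorophyll breakdown genes 9 rose and 1 fell (0.67). The higher count was 6 to 8 when 1 wild type library was left out. Their summed level was 1096 to 1908 CPM with ABA, against 646 to 745 CPM untreated. NYE2, a STAY-GREEN protein that removes the magnesium from chlorophyll, had 22.7, 10.7 and 13.3 CPM with ABA, against 2.62, 1.6 and 0.841 CPM untreated (log2 fold change 3.19 ± 0.42, adjusted p = 5.44e-05), whereas CLH1, a chlorophyllase, fell (-1.28 ± 0.34). Carotenoid and isoprenoid precursor genes lay below the background in both directions, with 4 of 20 higher and 2 lower, and the lower count was 1 without each of wild type untreated replicates 1 and 2 and ABA replicates 2 and 3. ZDS (0.72 ± 0.16) and LUT2 (0.47 ± 0.13) rose and GGPS1 fell (-0.74 ± 0.15). When fold changes were corrected for the length and GC content of genes, the medians were -0.93 for photosystem genes, -0.84 for the Calvin cycle, -0.28 for chlorophyll synthesis and 1.07 for chlorophyll breakdown.

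In starch synthesis, starch breakdown, raffinose synthesis and trehalose phosphate metabolism more genes rose than fell. Of 23 starch breakdown genes 14 rose and 1 fell (0.66), and of 16 starch synthesis genes 11 rose and 2 fell (0.44). APL3, a regulatory subunit of ADP-glucose pyrophosphorylase, the enzyme that commits sugar to starch, had 303, 348 and 428 CPM with ABA, against 32.4, 29.1 and 30.2 CPM untreated (log2 fold change 3.56 ± 0.20, adjusted p = 8.3e-08). AMY1, a secreted alpha-amylase, had 9.42, 5.54 and 9.68 CPM with ABA, against 0.525, 0.554 and 0.601 CPM untreated (log2 fold change 3.86 ± 0.38, adjusted p = 4.92e-06). Both stood apart between groups. APL4, another such subunit (1.95 ± 0.26), GBSS1, which makes amylose (1.55 ± 0.21), the debranching enzyme ISA3 (1.2 ± 0.17) and AMY2 (1.35 ± 0.17) rose too. The chloroplast beta-amylase gene CT-BMY (-0.65 ± 0.15, corrected -0.28) and APL1, the main leaf subunit (-0.47 ± 0.13), fell. Without wild type ABA replicate 2 the count of raised starch synthesis genes was 7, and the lower count was 1 when any wild type library but ABA replicate 2 was left out.

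Of 26 sugar transporter genes 11 rose and 6 fell (0.58). SWEET4, a sugar facilitator, had 128, 89.1 and 88.6 CPM with ABA, against 2.92, 3.14 and 2.22 CPM untreated (log2 fold change 5.21 ± 0.40, adjusted p = 6.87e-07). SUC1, a sucrose importer, had 12.8, 14.7 and 8.65 CPM with ABA, against 80.7, 77.2 and 84.7 CPM untreated (log2 fold change -2.75 ± 0.26, adjusted p = 3.72e-06). ESL1, a vacuolar sugar facilitator (3.11 ± 0.20), and SWEET13 (2.57 ± 0.14) rose. Trehalose phosphate genes, whose product signals sugar status, had 11 of 17 members higher and 3 lower (1.38), with the phosphatases TPPI (2.74 ± 0.21) and TPPJ (2.47 ± 0.17) and the synthase-like TPS6 (1.87 ± 0.25) higher and TPPA lower (-1.08 ± 0.17). Of 10 galactinol and raffinose genes, which make protective sugars, 6 rose and 2 fell (1.24). GOLS2 and GOLS4 rose (3.84 ± 0.33 and 3.59 ± 0.26) as did SIP1, a raffinose synthase-like gene (1.64 ± 0.12), and GOLS3, scarce in every library, fell (-4.08 ± 0.68; -5.86 without ABA replicate 1 and -3.47 without ABA replicate 3).

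Genes of amino acid breakdown mostly rose, and energy-starvation genes did so less uniformly. The second list joins dark-inducible genes with genes of energy signalling. Of 18 genes that degrade branched-chain amino acids and lysine 14 rose and none fell (1.31). LKR/SDH, the entry enzyme of lysine breakdown, had 858, 475 and 363 CPM with ABA, against 41.8, 20.3 and 29.8 CPM untreated (log2 fold change 4.21 ± 0.44, adjusted p = 8.03e-06). Its ABA replicate 1 was the highest library, and the groups did not overlap. ETFALPHA and ETFBETA, the electron transfer flavoprotein that passes electrons from these reactions to respiration, rose by 1.59 ± 0.16 and 1.33 ± 0.14. Of 13 energy-starvation genes 7 rose and 2 fell (0.89). DIN2, a beta-glucosidase gene, had 507, 200.2 and 155 CPM with ABA, against 9.15, 5.54 and 6.37 CPM untreated (log2 fold change 5.35 ± 0.50, adjusted p = 3.4e-06, and 4.66 without ABA replicate 1). DIN9 (1.71 ± 0.37) and KIN10, the catalytic subunit of the energy-sensing kinase SnRK1 (0.61 ± 0.11), rose, and BZIP63, a factor that SnRK1 acts on, fell (-1.3 ± 0.26).

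Both lists were highest in wild type ABA replicate 1. The summed level of the amino acid breakdown genes was 1306.8 to 3032.0 CPM with ABA, against 674.15 to 775.54 CPM untreated. That of the energy-starvation genes was 567.69 to 1996.9 CPM with ABA, against 417.78 to 706.36 CPM untreated. Without ABA replicate 1 the medians of the 2 lists were 0.87 and 0.56, 1 member of the first was lower, and the medians of peroxisomal beta-oxidation and sugar transporters were 0.45 and 0.21. The energy-starvation list had 1 lower member without wild type untreated replicate 3, ABA replicate 2 or ABA replicate 3.

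Proline genes had 5 of 9 members higher and 1 lower (0.53). P5CS1, the rate-limiting enzyme of proline synthesis and a member of the core list, had 720.4, 629.9 and 602 CPM with ABA, against 56.2, 37.7 and 49.2 CPM untreated (log2 fold change 3.77 ± 0.20, adjusted p = 7.32e-08). OAT (1.81 ± 0.24) and ALDH12A1, which degrades proline (1.37 ± 0.13), rose too, while P5CR, the second step of synthesis, fell (-1.17 ± 0.21), a call that was lost after the length and GC correction (-0.29, adjusted p = 0.0856). Alternative respiration had 6 of 14 genes higher and 4 lower (0.57), with the external NADH dehydrogenase NDB2 (1.5 ± 0.12) and the internal NDA2 (1.09 ± 0.13) higher and the carrier PUMP4 lower (-2.44 ± 0.31, corrected -1.33). AOX2, an alternative oxidase, had 64 counts with ABA and 0 untreated, at least 16.6-fold higher if the 0 is set to the limit of 3 counts in all.

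**Figure D4:**
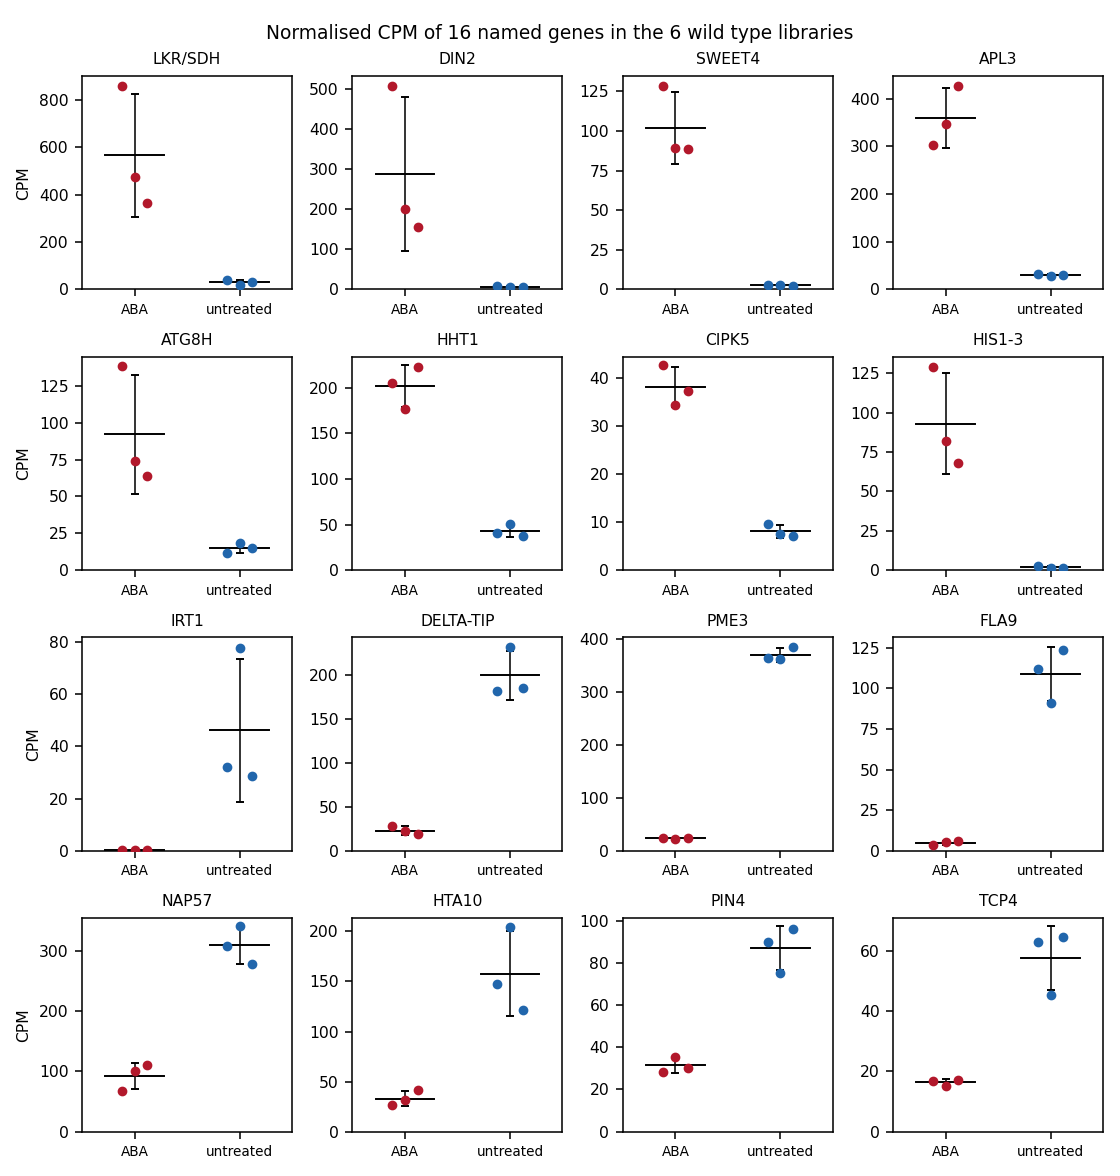
Normalised CPM of 16 named genes in each wild type library, ABA left and untreated right, with the mean (line) and SD (bar) of 3 libraries. The groups are separate in each panel, and ABA replicate 1 is the highest of the 3 in LKR/SDH, DIN2, SWEET4, ATG8H, CIPK5, HIS1-3, DELTA-TIP and PME3.

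Genes of beta-oxidation and of suberin were mostly raised, storage lipid, membrane lipid and wax genes moved in both directions, and those of lipid transfer mostly fell. Of 25 genes of beta-oxidation and the glyoxylate cycle 15 rose and 3 fell (0.78). CSY3, a peroxisomal citrate synthase, had 226, 151 and 136 CPM with ABA, against 37.2, 30.4 and 31.2 CPM untreated (log2 fold change 2.38 ± 0.20, adjusted p = 1.35e-06), and LACS7, which activates fatty acids in the peroxisome, rose by 1.94 ± 0.22. AIM1 rose (1.05 ± 0.14) and the peroxisomal malate dehydrogenase PMDH2 fell (-0.9 ± 0.20). Storage lipid and lipid droplet genes had 5 of 11 members higher and 3 lower (0.35), and 3 higher without wild type untreated replicate 3 or without ABA replicate 1. PES1 and PES2, which esterify phytol freed from chlorophyll, rose by 1.55 ± 0.22 and 1.6 ± 0.26, and ROD1 fell (-1.54 ± 0.23). Among 24 genes of membrane lipid remodelling 9 rose and 4 fell (0.06), with the phospholipase gene PLDDELTA (1.81 ± 0.16), PLC5 (1.66 ± 0.17) and DGK1 (1.28 ± 0.17) higher and the desaturase FAD5 lower (-1.08 ± 0.13).

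Suberin, the lipid polymer that seals root endodermis and wounds, had 14 of 19 synthesis genes higher and none lower (1.42). MYB41, a factor that switches on suberin genes, had 16.4, 13 and 13.3 CPM with ABA, against 1.11, 0.923 and 0.781 CPM untreated (log2 fold change 3.91 ± 0.19, adjusted p = 3.45e-08). HHT1, which adds ferulate to the polymer, had 205, 177 and 223 CPM with ABA, against 40.4, 50.4 and 38 CPM untreated (log2 fold change 2.23 ± 0.15, adjusted p = 2.79e-07), and CYP86B1, an oxidase of very long fatty acids, had 32.9, 33.8 and 37.6 CPM with ABA, against 12.2, 11.3 and 11.4 CPM untreated (log2 fold change 1.58 ± 0.11, adjusted p = 4.75e-07). The groups stood apart in all 3. Wax synthesis and export, which coat the shoot, had 12 of 24 members higher and 8 lower (0.33). CER1, which makes wax alkanes, had 127, 120.5 and 82.6 CPM with ABA, against 13.1, 16 and 20.2 CPM untreated (log2 fold change 2.74 ± 0.26, adjusted p = 3.97e-06), WSD1, a wax ester synthase, rose by 3.84 ± 0.41, and the wax regulator MYB94 by 1.66 ± 0.19.

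Of 14 lipid transfer protein genes 9 fell and 3 rose (-1.36, and -0.94 after the length and GC correction). AZI1, a protein of systemic immunity, had 2.27, 2.01 and 1.29 CPM with ABA, against 49.3, 22.7 and 28.8 CPM untreated (log2 fold change -4.18 ± 0.37, adjusted p = 2.42e-06). LTP5 and LTPG2 changed by -2.6 ± 0.27 and -2.29 ± 0.25, whereas LTPG5 rose by 2.09 ± 0.18 beside LTP4, given above. Of the 14 tested members, 7 passed the test of a difference between genotypes, compared with 1.8% of all tested genes.

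Among genes of nitrogen, sulfur and iron use more members fell than rose, with the rest not called, while phosphate genes were mixed. The summed level of the list overlapped between ABA and untreated libraries for nitrogen (6691 to 8357 and 8287 to 10709 CPM) and for sulfur (2838 to 3647 and 3241 to 3484 CPM). Nitrate and ammonium genes had 15 of 31 members lower and 5 higher (-0.60, and -0.24 after the length and GC correction). GLN1;2, a cytosolic glutamine synthetase, had 202, 194 and 184 CPM with ABA, against 750.3, 1068 and 881 CPM untreated (log2 fold change -2.22 ± 0.21, adjusted p = 3.64e-06), and AMT1;3, an ammonium importer, had 1.33, 1.53 and 1.72 CPM with ABA, against 11.7, 16 and 13.5 CPM untreated (log2 fold change -3.16 ± 0.28, adjusted p = 2.39e-06, corrected -2.38). NRT1.4, a nitrate transporter of the petiole, had 276, 184 and 167 CPM with ABA, against 39.4, 28.3 and 36.6 CPM untreated (log2 fold change 2.59 ± 0.24, adjusted p = 2.83e-06). The groups were separate in all 3. NRT2.3 fell by 5.09 on the log2 scale, or by 4.31 corrected, and fell by 5.69 without ABA replicate 3. Sulfur genes had 14 of 33 members lower and 5 higher (-0.47), with 3 higher without ABA replicate 1. The sulfate transporter genes SULTR2;2 (-1.24 ± 0.15), SULTR3;3 (-1.29 ± 0.16) and SULTR3;5 (-1.58 ± 0.18) fell and SULTR3;1 rose (1.09 ± 0.14).

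Iron genes had 15 of 33 members lower and 7 higher (-0.68), and IRT1 above was the largest fall among them. F6'H1, which makes the coumarins that roots secrete to free iron, had 5.82, 5.74 and 4.82 CPM with ABA, against 39.8, 81.4 and 52.7 CPM untreated (log2 fold change -3.41 ± 0.23, adjusted p = 2.41e-07). NAS1, for a nicotianamine synthase that makes an iron chelator, fell (-3.16 ± 0.33). YSL2, a transporter of metal-nicotianamine complexes, went the other way, with 136, 141 and 133 CPM with ABA, against 54.2, 45.1 and 54.9 CPM untreated (log2 fold change 1.42 ± 0.13, adjusted p = 3.15e-06). Phosphate starvation genes had 5 of 22 members higher and 4 lower (-0.04), with 3 higher without wild type untreated replicate 1 or 3. The secreted ribonuclease gene RNS1 had 45.8, 36.4 and 18 CPM with ABA, against 3.73, 1.79 and 0.841 CPM untreated (log2 fold change 3.97 ± 0.44, adjusted p = 1.38e-05, and 4.67 without untreated replicate 1). PLDZETA2 rose (1.81 ± 0.30), as did the acid phosphatase PAP17 (1.83 ± 0.36, and 2.63 without untreated replicate 2), and the phosphate importer PHT1;1 had 13.9, 17.7 and 17.7 CPM with ABA, against 55, 92.9 and 97.8 CPM untreated (log2 fold change -2.32 ± 0.30, adjusted p = 5.03e-05).

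Water channels fell as a group. Of 13 plasma membrane aquaporins 9 fell and none rose (-0.89), led by PIP2;8 (-1.49 ± 0.24), PIP1;5 (-1.36 ± 0.24) and PIP2;4 (-2.39 ± 0.40). Of 14 tested tonoplast and other aquaporins (of 21 matched) 11 fell and none rose (-1.43). DELTA-TIP, a water channel of the vacuole membrane, had 28.1, 22.8 and 18.6 CPM with ABA, against 181, 232 and 186 CPM untreated (log2 fold change -3.11 ± 0.21, adjusted p = 2.41e-07, corrected -2.425), and GAMMA-TIP had 52.6, 42.4 and 55.2 CPM with ABA, against 285, 354 and 267 CPM untreated (log2 fold change -2.59 ± 0.18, adjusted p = 2.75e-07, corrected -1.66). NIP1;1, of the nodulin-like branch, had 0.789, 1.39 and 2.11 CPM with ABA, against 19.7, 29.2 and 26.1 CPM untreated (log2 fold change -4.11 ± 0.27, adjusted p = 2.09e-07). In all 3 every ABA library lay below every untreated one. The genotypes differed in the response of 4 of the 14 members, DELTA-TIP and GAMMA-TIP among them.

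Lists of genes linked to cell types or organs changed in different directions, and not all of their members are defining markers. Guard cell genes had 8 of 16 members higher and 5 lower (0.42). GORK, the potassium channel that lets guard cells shrink, had 91.7, 88.7 and 70.3 CPM with ABA, against 16.7, 12.2 and 15.6 CPM untreated (log2 fold change 2.49 ± 0.18, adjusted p = 4.14e-07), and the NADPH oxidase RBOHF had 93.9, 89.4 and 87.9 CPM with ABA, against 25.1, 21.8 and 30.2 CPM untreated (log2 fold change 1.81 ± 0.18, adjusted p = 5.72e-06). Its relative RBOHD had 24.4, 27.5 and 27.5 CPM with ABA, against 78.2, 67.8 and 84.2 CPM untreated (log2 fold change -1.54 ± 0.16, adjusted p = 7.03e-06). The groups were apart in each. BLUS1, a kinase of blue light stomatal opening, rose by 1.05 ± 0.14. Of 16 stomatal lineage genes 6 fell and none rose (-0.26; 2 rose without untreated replicate 2), among them the protease SDD1 (-0.99 ± 0.16, corrected -0.54), the peptide EPF2 (-1.25 ± 0.28) and the receptor-like TMM (-1.03 ± 0.19, but -0.18 and adjusted p = 0.29 after the length and GC correction).

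Of 11 endodermal barrier genes 6 fell and 2 rose (-1.02, and -0.20 after the length and GC correction). SHR, the factor that specifies endodermis, had 5.67, 5.11 and 4.86 CPM with ABA, against 18.7, 18.5 and 21.2 CPM untreated (log2 fold change -1.9 ± 0.18, adjusted p = 4.24e-06), CASP1 and CASP2 of the Casparian strip changed by -2.53 ± 0.43 and -2.21 ± 0.31, and CASP5 rose by 3.69 ± 0.52. CASP1 and CASP2 were at -1.49 and -1.52 corrected. Root hair genes had 5 of 19 members lower and 1 higher (-0.10), with 3 lower without untreated replicate 2 or ABA replicate 1. RHS13, RHS19 and RSL2 changed by -1.62 ± 0.43, -1.38 ± 0.39 and -1.19 ± 0.31, and the call of RHS19 was lost without untreated replicate 2 (-0.98, adjusted p = 0.0617). RHD2 rose by 0.49 ± 0.18, but its groups overlapped, and the call was lost under 6 alternatives, with adjusted p up to 0.139. The higher count of root hair genes was 0 without untreated replicate 1 or ABA replicate 2 and 2 without ABA replicate 1.

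Meristem and leaf polarity genes had 14 of 27 members lower and 3 higher (-0.54). The lamina growth genes YAB3 and YAB5 fell (-1.19 ± 0.13 and -1.36 ± 0.14), as did the boundary gene LOB (-2.29 ± 0.26), and YAB2 rose (0.54 ± 0.11). Phloem genes had 3 of 11 higher and 2 lower, with the proton pump AHA3 at 0.98 ± 0.15 and the protophloem regulator OPS at -1.55 ± 0.16 (corrected -0.855). Trichome genes had 3 of 12 higher and 4 lower, with TTG2 at 2.08 ± 0.20 and GL2 at -2.21 ± 0.31 (corrected -1.59). Flower genes had 2 of 11 higher and 3 lower (1 lower without ABA replicate 3). SOC1, a factor that promotes flowering, had 88, 88.1 and 95.4 CPM with ABA, against 26.8, 21.1 and 21 CPM untreated (log2 fold change 1.98 ± 0.22, adjusted p = 1.52e-05), and FT, the mobile flowering signal, fell (-1.37 ± 0.28). Of 13 seed storage and seed factor genes only FUS3, a seed regulator, passed the filter, at 1.23, 1.1 and 1.12 CPM with ABA, against 0.117, 0.0616 and 0.12 CPM untreated (log2 fold change 3.44 ± 0.46, adjusted p = 6.16e-05). It had 74 counts with ABA and 5 untreated. Of the wild type groups only the ABA group could carry it past the filter, so its call says little about the list.

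Defining markers of the cell types gave these summed levels. The 8 guard cell markers summed to 185.8 to 212.8 CPM with ABA and 103.9 to 115.0 CPM untreated, with 5 higher and 2 lower. The largest rise among them was in GORK, given above, and the 2 lower ones were MYB60 and HT1. FAMA, not called, had 22.9, 23.5 and 21.5 CPM with ABA, against 23.1, 21.6 and 23.9 CPM untreated. The 7 stomatal lineage markers summed to 48.8 to 56.5 CPM with ABA and 69.7 to 92.0 CPM untreated (none higher, 4 lower), and the 7 endodermis markers to 25.1 to 29.0 CPM and 57.4 to 76.3 CPM (1 higher, 5 lower). The 5 root hair markers summed to 20.2 to 24.8 CPM with ABA and 22.3 to 44.7 CPM untreated (2 lower), and both companion cell markers to 422 to 517 CPM and 282 to 346 CPM (1 higher). Of this pair AHA3 was higher, whereas SUC2, not called, had 90.1, 74.3 and 48.3 CPM with ABA, against 116, 115 and 118 CPM untreated, all ABA libraries below. All markers of these 5 types were detected. The 5 seed markers summed to at most 0.258 CPM with ABA and 0.291 CPM untreated, with CRU3 and SESA1 at 0 in all 6 libraries. The 4 flower markers summed to 0.690 to 1.12 CPM and 0.738 to 1.51 CPM, with no call. Markers of shoot and of root cells were thus present, as the label of whole seedlings says. The part of these marker shifts in the other results was not tested.

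Among the cell wall lists, arabinogalactan proteins and pectin enzymes had the largest shares lower. Alpha expansins were in none of these lists. In the survey of symbol families, EXPA, their symbol, had 14 of 16 tested members lower and 1 higher (-1.79). Of 40 tested fasciclin-like and classical arabinogalactan proteins (of 50), heavily glycosylated wall proteins, 35 fell and none rose (-1.31, and -0.95 after the length and GC correction). FLA9 had 3.65, 5.16 and 5.98 CPM with ABA, against 112, 91 and 123 CPM untreated (log2 fold change -4.46 ± 0.27, adjusted p = 1.24e-07), and AGP18 had 3.25, 3.63 and 2.88 CPM with ABA, against 32.4, 28.1 and 31.9 CPM untreated (log2 fold change -3.24 ± 0.20, adjusted p = 1.4e-07). AGP9 changed by -2.3 ± 0.17. Of 16 tested pectin methylesterases and inhibitors 10 fell and 2 rose (-1.33). PME3, a major methylesterase of leaves, had 25, 22.1 and 23.4 CPM with ABA, against 363, 361 and 384 CPM untreated (log2 fold change -3.97 ± 0.30, adjusted p = 6.64e-07, corrected -3.39), and the groups of all these genes were far apart. PME5 and PME44 changed by -2.28 ± 0.19 and -1.42 ± 0.12, while QRT1 rose by 1.75 ± 0.21. PME5 and PME44 were at -1.68 and -2.09 corrected.

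The XTH, beta expansin and cellulose synthase-like lists each had members higher and members lower. XTH genes, which cut and rejoin xyloglucan, had 9 of 30 members higher and 10 lower (-0.17). These shares, 30.0% and 33.3%, were near the 25.2% and 28.2% of all genes. XTH31 had 4.19, 7.93 and 7.53 CPM with ABA, against 98.9, 147 and 109 CPM untreated (log2 fold change -4.17 ± 0.33, adjusted p = 8.11e-07), XTH20 and XTH4 changed by -4.1 ± 0.39 and -1.48 ± 0.15, and XTH11 rose by 6.11 ± 0.45 (6.72 without untreated replicate 1). Among 7 beta expansins and expansin-like genes 3 rose and 4 fell. EXLB1, an expansin-like gene, had 249, 212 and 211 CPM with ABA, against 23.8, 30.0 and 19.6 CPM untreated (log2 fold change 3.19 ± 0.18, adjusted p = 8.68e-08), EXPB1 (corrected -2.225) and EXPB3 changed by -2.84 ± 0.35 and -3.84 ± 0.27, and EXPB2 had 3 counts with ABA and 87 untreated, a ratio of 37.4 for untreated over ABA (exact counting interval 12.4 to 185). Its log2 fold change was -5.05, and -4.12 without untreated replicate 2 or -5.9 without ABA replicate 2. Cellulose synthase-like genes had 7 of 27 higher, near the share of all genes, and 10 lower (-0.17). CSLA10 had 229, 148 and 178 CPM with ABA, against 12.8, 9.73 and 13.8 CPM untreated (log2 fold change 3.93 ± 0.23, adjusted p = 9.25e-08), and CSLB05, CSLB06 and CSLA15 changed by -4.79 ± 0.49, -3.9 ± 0.39 and -1.64 ± 0.16.

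Primary wall cellulose genes had 3 of 14 members lower and 1 higher (-0.12), below the background in both directions, and the lower count was 1 without untreated replicate 3 or ABA replicate 1. CTL1 (-0.67 ± 0.16) and COB (-0.38 ± 0.12, corrected -0.6), which help cellulose assembly, were called lower, and the scarce CESA10 higher (1.99 ± 0.64, and 2.92 without untreated replicate 3). The calls of COB and CESA10 were lost when 1 library was left out, with adjusted p up to 0.0669 and 0.0531. Without untreated replicate 1 no member was higher, and without untreated replicate 3 there were 2. Secondary wall and lignin genes had 17 of 40 members higher and 4 lower (0.21). CAD5, which makes monolignols, had 218, 182 and 154 CPM with ABA, against 38.1, 40.4 and 37.3 CPM untreated (log2 fold change 2.26 ± 0.17, adjusted p = 5.17e-07). MYB85 and IRX6, a regulator and a wall protein of vessels and fibres, rose by 3.01 ± 0.28 and 1.32 ± 0.18, and PAL3, of the first phenylpropanoid step, fell by 2.11 on the log2 scale, or by 1.47 corrected.

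**Figure D5:**
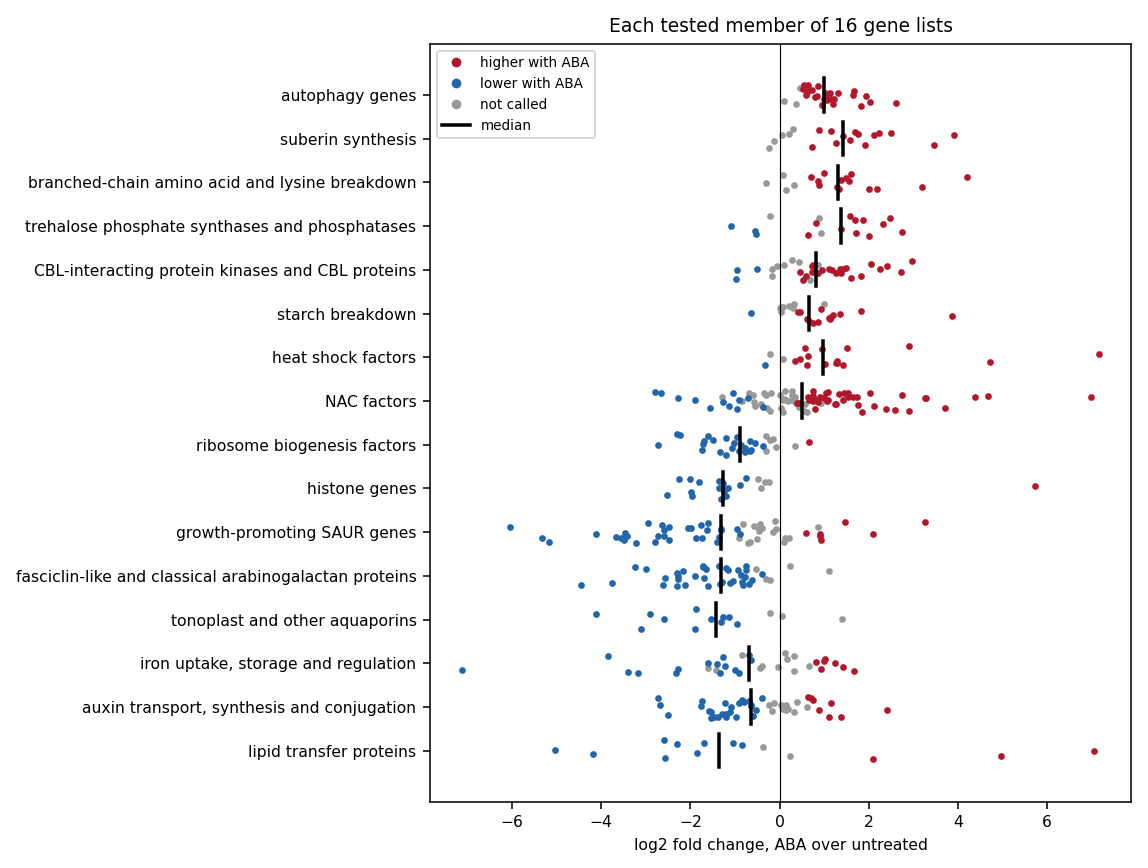
Log2 fold change of ABA over untreated (x axis) for every tested member of 16 gene lists, with members called higher in red, lower in blue and not called in grey, and the median as a black line. In autophagy no member lies below 0, and among histone genes HIS1-3 lies far to the right of all others.

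Most histone genes fell, as did most growth-regulating and TCP factors, while the share of DNA replication genes that fell was near the background. Of 22 histone genes 17 fell and 1 rose (-1.27, and -0.93 after the length and GC correction). HTA10, of the H2A family, had 26.2, 31.5 and 41.3 CPM with ABA, against 148, 204 and 122 CPM untreated (log2 fold change -2.26 ± 0.25, adjusted p = 1.54e-05), and HTB1 and HTA13 changed by -2.53 ± 0.32 and -1.99 ± 0.24, with HTA13 at -1.30 corrected. The single riser, HIS1-3, a linker histone gene induced by water deficit, had 129, 82.4 and 68 CPM with ABA, against 2.62, 1.23 and 1.38 CPM untreated (log2 fold change 5.73 ± 0.36, adjusted p = 1.62e-07). Its groups, like those of HTA10, did not overlap. Of 54 DNA replication genes 18 fell and 1 rose (-0.33), near the background of 28.2%, and the lower count was 10 without untreated replicate 2, 30 without ABA replicate 3 and 9 with scaling by library totals. POLD4, a DNA polymerase subunit, had 7.35, 6.12 and 6.93 CPM with ABA, against 23.6, 32.8 and 21.2 CPM untreated (log2 fold change -1.93 ± 0.25, adjusted p = 4.44e-05, corrected -0.67), PCNA1, the sliding clamp, and TK1B changed by -1.67 ± 0.27 and -1.28 ± 0.24, and the cell cycle factor E2FB rose by 0.73 ± 0.14. PCNA1 and TK1B were at -1.03 and -0.83 corrected.

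Growth-regulating and TCP factors, which set leaf cell division, had 19 of 31 members lower and 2 higher (-0.63; 4 higher without untreated replicate 2). TCP4 had 16.9, 15 and 17.1 CPM with ABA, against 63, 45.5 and 64.6 CPM untreated (log2 fold change -1.82 ± 0.16, adjusted p = 2.12e-06, corrected -1.11). GRF3 (-1.7 ± 0.15) and TCP8 (-1.69 ± 0.16) fell, and TCP13 rose (1.23 ± 0.27). The SAUR family, small proteins that promote cell expansion under auxin, had 31 of 55 tested members lower and 7 higher (-1.31), out of 78 matched. SAUR62 and SAUR49 changed by -3.42 ± 0.31 and -1.87 ± 0.22, SAUR35 rose by 3.25 ± 0.28, and SAUR1 had 2 counts with ABA and 67 untreated, a ratio of 43.1 for untreated over ABA (interval 11.5 to 364). Many SAUR, histone and ribosomal protein genes have close copies, and the labels do not state how shared reads were counted, so single members are uncertain.

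Light signalling genes were mixed. Phytochrome, cryptochrome and PIF genes had 13 of 34 members higher and 7 lower (0.16). PIF3, a factor that represses greening in the dark, had 64.5, 57.2 and 60.4 CPM with ABA, against 12.9, 10.7 and 11.2 CPM untreated (log2 fold change 2.38 ± 0.13, adjusted p = 7.77e-08), and PIL2 had 59.5, 46.4 and 37.1 CPM with ABA, against 5.54, 5.11 and 4.63 CPM untreated (log2 fold change 3.22 ± 0.20, adjusted p = 1.67e-07). The groups were apart in both. SPA4, which acts with the ubiquitin ligase COP1, rose by 1.13 ± 0.19, and PAR2 fell by 2.81 on the log2 scale. BBX zinc finger genes had 6 of 26 members higher and 8 lower (0.03), with 3 higher without ABA replicate 1 and 5 lower without each of untreated replicates 1 and 2 and ABA replicates 2 and 3. BBX22 rose (1.13 ± 0.14) and BBX20, BBX14 and COL3 fell (-1.65 ± 0.25, -1.31 ± 0.13 and -1.29 ± 0.16), with COL3 at -0.655 corrected. A difference in harvest hour between the groups cannot be told apart from ABA in genes that follow light or the clock.

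Among hormone pathways other than ABA, cytokinin, auxin and brassinosteroid genes were more often lower than higher and ethylene genes more often higher, while gibberellin genes turned with the scaling. Cytokinin genes had 25 of 48 members lower and 12 higher (-0.59). CYP735A2, which makes trans-zeatin, the main root-made cytokinin, had 0.0493, 0.191 and 0.129 CPM with ABA, against 7.87, 6.77 and 11.3 CPM untreated (log2 fold change -6.05 ± 0.41, adjusted p = 2.96e-07). The cytokinin oxidases CKX1 and CKX4, which destroy the hormone, changed by -3.68 ± 0.29 and -3.33 ± 0.24, and LOG5, an activating enzyme, had 23.6, 18.7 and 14.4 CPM with ABA, against 2.22, 1.54 and 2.04 CPM untreated (log2 fold change 3.28 ± 0.21, adjusted p = 2.18e-07). Both CYP735A2 and LOG5 had separate groups. Auxin transport, synthesis and conjugation had 26 of 45 members lower and 8 higher (-0.63). PIN4, an auxin exporter, had 28.2, 35.5 and 30.3 CPM with ABA, against 90.0, 75.3 and 95.9 CPM untreated (log2 fold change -1.47 ± 0.15, adjusted p = 5.84e-06), the importer LAX3 and the kinase WAG1 changed by -1.73 ± 0.17 and -2.69 ± 0.29, and PILS5, which holds auxin inside the cell, had 389.8, 236 and 213 CPM with ABA, against 61.6, 37 and 59.7 CPM untreated (log2 fold change 2.41 ± 0.27, adjusted p = 1.31e-05).

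Gibberellin genes had 10 of 24 members lower and 7 higher (-0.29). GA3OX1, of the last activating step, had 5.96, 4.59 and 4.82 CPM with ABA, against 17, 15.4 and 15.2 CPM untreated (log2 fold change -1.63 ± 0.19, adjusted p = 2.24e-05, corrected -1.03), GA3OX2 (corrected -1.42) and the DELLA repressor GAI changed by -2.04 ± 0.25 and -0.84 ± 0.11, and the receptor gene GID1C had 29.4, 26.1 and 19.7 CPM with ABA, against 12.4, 10.9 and 10.6 CPM untreated (log2 fold change 1.15 ± 0.16, adjusted p = 7.01e-05). Of 6 GASA peptide genes 4 fell and 1 rose (2 without ABA replicate 3). GASA5 had 1.77, 2.25 and 2.11 CPM with ABA, against 22.5, 37.2 and 29.3 CPM untreated (log2 fold change -3.85 ± 0.21, adjusted p = 7.77e-08), GASA6 and GASA14 changed by -5.06 ± 0.38 and -2.31 ± 0.32, and GASA3 had 743 counts with ABA and 2 untreated, a ratio of 288 for ABA over untreated (interval 79.6 to 2390), with both untreated counts in replicate 1 and a log2 fold change of 7.97, or 10.83 without that library.

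Brassinosteroid genes had 12 of 31 members lower and 7 higher (-0.12), and 4 higher without untreated replicate 1, ABA replicate 1 or ABA replicate 2. BR6OX1, of the last synthesis steps, BEH1 and BEE1 changed by -2.97 ± 0.36, -3.09 ± 0.32 and -2.46 ± 0.24, and the inactivating enzyme SOB7 rose by 0.58 ± 0.11. Ethylene genes had 12 of 28 members higher and 4 lower (0.31), and 2 lower without untreated replicate 1, ABA replicate 2 or ABA replicate 3. ACS7, which makes the ethylene precursor, the receptor ERS2 and ARGOS, which dampens ethylene signalling, rose by 2.13 ± 0.32, 1.86 ± 0.26 and 1.85 ± 0.29, and HLS1 fell by 0.93 on the log2 scale. Strigolactone and karrikin genes had 3 of 15 members higher and 1 lower (0.13), below the background in both directions, and 1 higher without ABA replicate 1. MAX1, of strigolactone synthesis, rose by 0.59 ± 0.10, SMXL8, a repressor of the pathway, fell by 0.59 on the log2 scale, and MAX2 was called higher (0.62 ± 0.23, corrected 1.24) although its groups overlapped, a call lost when 1 library was left out (adjusted p up to 0.125).

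Of the redox lists, glutathione transferases were more often higher and class III peroxidases more often lower. Tau and phi glutathione transferases had 16 of 37 members higher and 7 lower (0.22), and 4 lower without untreated replicate 1 and 3 without ABA replicate 2. GSTU19, the most abundant of those named, had 1753, 1351 and 1224 CPM with ABA, against 557, 512 and 502 CPM untreated (log2 fold change 1.46 ± 0.17, adjusted p = 2.47e-05), GSTU9 and GSTU16 rose by 2.7 ± 0.16 and 1.82 ± 0.17, and GSTU13 fell by 1.52 on the log2 scale. Catalase, superoxide dismutase and ascorbate-glutathione enzymes had 11 of 39 members higher and 10 lower (-0.10), both near the shares of all genes. GPX2 was at 1.52 ± 0.19, GPX6 at 0.98 ± 0.15 and the scarce APX2 at 4.95 ± 0.48 (6.85 without untreated replicate 1, corrected 5.59). CSD2, the chloroplast copper-zinc superoxide dismutase, had 14.7, 12.5 and 10.6 CPM with ABA, against 63.5, 67.2 and 69 CPM untreated (log2 fold change -2.4 ± 0.33, adjusted p = 6.93e-05). Of 10 tested class III peroxidases, from a list of 12, 6 fell and 1 rose (-1.04). Among 54 tested genes annotated as peroxidase superfamily proteins 29 fell and 10 rose (-0.79). PRX71 had 1.92, 1 and 1.59 CPM with ABA, against 40.6, 23.9 and 45.5 CPM untreated (log2 fold change -4.6 ± 0.39, adjusted p = 1.56e-06, corrected -3.98), PRXCA and PRX37 changed by -2.96 ± 0.20 and -2.91 ± 0.19, and PRXCB rose by 0.78 ± 0.20. The groups of GSTU19, CSD2 and PRX71 did not overlap.

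Autophagy genes mostly rose, and factors that build ribosomes mostly fell. Of 29 autophagy genes 26 rose and none fell (0.99). ATG8H, of the ubiquitin-like family that marks autophagosomes, had 138, 74 and 63.6 CPM with ABA, against 11.9, 18.3 and 14.9 CPM untreated (log2 fold change 2.61 ± 0.30, adjusted p = 2e-05), and ATG8A had 205, 146 and 142 CPM with ABA, against 41.5, 54.2 and 44 CPM untreated (log2 fold change 1.82 ± 0.20, adjusted p = 1.18e-05). The kinase ATG1 that starts autophagosome formation had 64.9, 52.1 and 53.7 CPM with ABA, against 25.4, 27 and 29.1 CPM untreated (log2 fold change 1.07 ± 0.13, adjusted p = 2.81e-05). All ABA libraries exceeded all untreated ones in the 3 genes, and ABA replicate 1 was the highest. Of 30 ribosome biogenesis factors 23 fell and 1 rose (-0.89; 2 rose without ABA replicate 3). NAP57, the dyskerin enzyme that modifies ribosomal RNA, had 68, 100.1 and 109.9 CPM with ABA, against 308, 341 and 279 CPM untreated (log2 fold change -1.74 ± 0.21, adjusted p = 2.58e-05), and SWA1, a nucleolar factor, had 9.86, 11.8 and 11.4 CPM with ABA, against 50.2, 62 and 42.1 CPM untreated (log2 fold change -2.22 ± 0.28, adjusted p = 3.85e-05, corrected -1.095). LSG1-2 changed by -1.06 ± 0.12, and REIL1 rose by 0.66 ± 0.16.

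Proteasome subunits had 10 of 38 members higher, near the background, and 5 lower, below it (0.09). Corrected for length and GC content, 20 members were higher and 2 lower. The lower count was 3, 2, 3 and 3 without untreated replicates 1 and 2 and ABA replicates 2 and 3 in turn. RPT2A, PBB2 and RPN8B rose by 0.73 ± 0.13, 0.77 ± 0.13 and 0.6 ± 0.12, and RPT2B, a close copy of RPT2A, changed by -0.71 ± 0.14.

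NAC and heat shock factors were raised more often than all genes, and WRKY factors less clearly so. NAC factors had 39 of 82 tested members higher and 12 lower (0.49). NAC019 and RD26, which act in drought and senescence and belong to the core list too, rose by 6.98 ± 0.52 (6.38 without ABA replicate 1) and 4.68 ± 0.30, NAC080 had 48.2, 46.2 and 41.7 CPM with ABA, against 8.98, 8.62 and 8.29 CPM untreated (log2 fold change 2.39 ± 0.13, adjusted p = 8.68e-08), and NAC088 fell by 2.79 on the log2 scale, or by 2.15 corrected. WRKY factors had 23 of 63 members higher and 14 lower (0.25). WRKY24 and WRKY56 rose by 2.53 ± 0.18 and 2.61 ± 0.24, and WRKY7 had 7.89, 8.08 and 8.52 CPM with ABA, against 30.6, 27.3 and 25.6 CPM untreated (log2 fold change -1.77 ± 0.14, adjusted p = 7.5e-07). Heat shock factors had 15 of 18 members higher and 1 lower (0.98). HSFB2A had 45.6, 36.8 and 36.2 CPM with ABA, against 4.49, 5.36 and 6.07 CPM untreated (log2 fold change 2.9 ± 0.16, adjusted p = 8.68e-08), HSFA6B and HSFA6A rose by 4.71 ± 0.31 and 7.17 ± 0.54 (the second by 8.64 without untreated replicate 1), and the call of HSFB4 (-0.32 ± 0.13) was lost without any 1 of the 6 libraries.

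HD-Zip I factors had 6 of 15 members higher and 4 lower (-0.12), but 6 higher and 7 lower when corrected for length and GC content. HB-7 had 727, 551 and 463 CPM with ABA, against 23.1, 21.1 and 14.9 CPM untreated (log2 fold change 4.88 ± 0.23, adjusted p = 3.67e-08), HB-12 and HB6, all known targets of ABA, rose by 4.72 ± 0.23 and 2.0 ± 0.18, and HB5 fell by 0.59 on the log2 scale, a call that was lost with scaling by library totals. Nuclear factor Y subunits had 10 of 29 members higher and 8 lower (0.15), and 5 lower without each of untreated replicates 1 and 2 and ABA replicates 2 and 3. NF-YA5, linked to drought tolerance, had 25.3, 25.2 and 27 CPM with ABA, against 2.86, 2.71 and 2.94 CPM untreated (log2 fold change 3.18 ± 0.16, adjusted p = 6.07e-08), NF-YA7 and NF-YB5 rose by 2.47 ± 0.18 and 3.12 ± 0.28, and NF-YC1 fell by 1.58 on the log2 scale, or by 0.63 corrected. NAC080, WRKY7, HSFB2A, HB-7 and NF-YA5 each had separate groups.

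Among CIPK kinases and calcium-dependent kinases more members rose than fell, and CBL genes had 2 of 8 higher and 2 lower. CIPK kinases and their CBL calcium sensors had 23 of 34 members higher and 3 lower (0.82; 1 lower without untreated replicate 2). CIPK5 had 42.6, 34.4 and 37.3 CPM with ABA, against 9.5, 7.57 and 7.09 CPM untreated (log2 fold change 2.24 ± 0.15, adjusted p = 2.87e-07), and CIPK12 had 192, 176 and 175 CPM with ABA, against 59.9, 61.1 and 57.1 CPM untreated (log2 fold change 1.61 ± 0.12, adjusted p = 7.8e-07). CIPK25 rose by 2.73 ± 0.19, and CIPK4 fell by 0.96 on the log2 scale, a call lost with the length and GC correction (-0.25, adjusted p = 0.219). Calcium-dependent kinases had 10 of 27 members higher and 3 lower (0.34; 1 lower without untreated replicate 3), with CPK15, CPK30 and CPK32 higher (1.67 ± 0.19, 0.83 ± 0.14 and 0.82 ± 0.17) and CPK27 lower (-1.12 ± 0.16).

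The MAP kinase cascade had 19 of 47 members higher and 5 lower (0.37; 3 lower without ABA replicate 2). MAPKKK17 and MAPKKK18 (corrected 4.25), upstream kinases of an ABA-responsive cascade, and MPK7 rose by 2.65 ± 0.24, 3.52 ± 0.46 and 1.91 ± 0.18, and MPK10 fell by 2.14 on the log2 scale. Cysteine-rich receptor-like kinases had 9 of 36 members lower and 5 higher (-0.03). CRK30 had 1 count with ABA and 1477 untreated, a ratio of 1900 for untreated over ABA (interval 341 to 75200), with that count in ABA replicate 2 and a log2 fold change of -10.39, or -12.15 without that library. CRK40 and CRK21 changed by -2.12 ± 0.21 and -2.52 ± 0.20, and CRK45 rose by 2.59 ± 0.39 (3.28 without untreated replicate 1). CLE and other signalling peptides had 14 of 46 tested members lower and 8 higher (-0.30), out of 80 matched. RALF1, which stops root cell growth, RALFL33 and CLE4 changed by -2.07 ± 0.24, -1.57 ± 0.24 and -1.88 ± 0.27, and IDA, the signal for organ shedding, rose by 3.04 ± 0.41 (3.84 without untreated replicate 2). The groups of CIPK5 and CIPK12 did not overlap.

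A survey of 204 families, formed from the letters that begin gene symbols and with at least 8 tested members, ranked all such families by their share of calls. ATG, CIPK, HSFA and AGP genes and the trehalose phosphate synthases under TPS also belong to lists described above. Core list genes were not left out here, so families of ABA signalling or dehydration markers, such as SNRK and COR, may count them. The largest shares higher were in COR (8 of 8), TPS (8 of 10), ATG (14 of 18), SNRK (7 of 9), CIPK (15 of 20) and HSFA (6 of 8). The largest shares lower were in LHCB (9 of 9), RPL (20 of 21), PDF (10 of 11), TUB (8 of 9), RBP (8 of 9) and AGP (22 of 25). COR413-PM1, a cold-regulated membrane protein, had 1498, 1398 and 1142 CPM with ABA, against 185, 209 and 156 CPM untreated (log2 fold change 2.88 ± 0.21, adjusted p = 4.63e-07). The symbol TPS covers trehalose phosphate synthases and terpene synthases, and TPS04 of the second kind rose by 3.6 ± 1.01.

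Among the lowered families, PDF covers plant defensins and peptide deformylases. PDF1.2, a defensin induced by jasmonate and ethylene, had 3.94, 0.0956 and 0.559 CPM with ABA, against 29, 10.6 and 18.1 CPM untreated (log2 fold change -3.67 ± 0.92, adjusted p = 0.00474), and its close copies share sequence with it. TUB1, a beta-tubulin, had 5.87, 9.32 and 14.4 CPM with ABA, against 37.7, 40.6 and 42.5 CPM untreated (log2 fold change -2.03 ± 0.30, adjusted p = 0.000135), and RBP45A, an RNA-binding protein, had 25, 25.9 and 31.6 CPM with ABA, against 99.1, 130.4 and 88 CPM untreated (log2 fold change -1.94 ± 0.30, adjusted p = 0.000182). COR413-PM1, TPS04, PDF1.2, TUB1 and RBP45A were chosen after their values were seen. Of 89 families formed from the annotated product, with at least 20 tested members, histones (23 of 30 lower) and the inhibitor and lipid transfer superfamily (39 of 56 lower) led the falls. Proteins with a Rab-GAP domain, which act in vesicle traffic (13 of 21 higher), and CC-NBS-LRR immune receptors (13 of 24 higher) were among the 3 product families with the largest share raised.

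The response of the mutant differed from that of wild type in 384 genes, 1.8% of those tested, with the mutant response above that of wild type in 354 of them (1.66%) and below it in 30 (0.141%). Counts by list were 11 of 30 photosystem genes, 7 of 14 lipid transfer protein genes, 8 of 40 arabinogalactan protein genes, 5 of 22 histone genes, 4 of 14 tonoplast aquaporins, 3 of 20 Calvin cycle genes and 2 of 13 plasma membrane aquaporins. No member of the lists for autophagy, suberin, starch, trehalose, iron, auxin transport, ribosome biogenesis or CIPK and CBL genes passed that test, which does not show that the genotypes respond alike in them.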

How the data were processed

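RNA was taken from whole 2-week-old seedlings with Trizol, treated with DNase and sequenced from a stranded mRNA kit, per the labels' protocols. The authors deposited a table of raw read counts per gene, 33610 gene IDs by 12 libraries, with every value a whole number. Trimming with Trim Galore 0.3.3, edgeR and the TAIR10 genome are named in the submitters' processing notes. Aligner, counter and strand setting are not given in the sources at hand, so reads of overlapping or antisense genes could not be told apart.

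Genes passed edgeR's filterByExpr by group. Counts were scaled with TMM and fitted with edgeR 4.0.16 (R 4.3.3) as 1 model with a mean for each of the 4 groups, so the mutant libraries share in the estimate of spread. The quasi-likelihood test compared ABA with untreated in wild type, with Benjamini-Hochberg adjustment over all 21322 genes and a threshold of 0.05, and an interaction term compared the responses of the genotypes. Standard errors are the size of the log2 fold change divided by the square root of the F statistic. The code was tested on simulated data. Counting intervals and floors (3 counts) cover counting error only.

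The gene lists and the comparison were chosen with earlier results of these data known, so list counts are described beside those of all genes and carry no test. Symbols were matched to RefSeq TAIR10.1, and members whose symbol stands for more than 1 gene were set by locus. The families formed from annotated products were added after the annotation was seen. Named genes are the 12 largest rises and the 12 largest falls among called nuclear protein-coding genes outside the core list, with at least 5 CPM in the higher group, at least 10 counts in the lower and groups that do not overlap, and in each list up to 3 called members with the smallest adjusted p in its more frequent direction and 1 in the other. Any other named gene was chosen after its values were seen. Promoter windows span 250 bases before to 50 after the annotated start in RefSeq TAIR10.1, since that assembly's annotation was at hand and not the authors'. No genome coordinates are therefore given.

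Alternatives were RLE factors, library totals, DESeq2 1.42.0, other filters, only the wild type libraries, a replicate block, correction for length and GC content of genes, a 2-fold threshold (glmTreat), and leaving out each library. Replicate numbers were checked for pairing: deviations of same-numbered ABA and untreated libraries correlated at 0.228, -0.087 and -0.223, so the libraries were treated as unpaired.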

Additional observations from a re-analysis of the deposited data

Results flagged for a closer look

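In 27 of 300 named genes the log2 fold change of the mutant differed from that of wild type, by the interaction term of the edgeR model (adjusted p under 0.05 over all genes). Genes were named for the size or adjusted p of their wild type change, which the interaction term subtracts. That choice favours weaker responses in the mutant, so neither this count nor its direction describes genes in general. Each value subtracts the wild type log2 fold change from that of the mutant, and a positive value means a higher or less negative response in the mutant. All are from the main fit, without the length and GC correction. The 100 genes with most counts took 11.06% to 14.1% of counts in mutant untreated libraries, against 17.26% to 18.03% in wild type untreated ones. Whether the untreated levels of these genes differed between genotypes was not tested.

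In the chloroplast the difference was 1.63 for PSB27, 2.03 for FD1, 1.71 for PSBY, 2.46 for FBA1, 2.4 for FBA2, 2.33 for CP12-1 and 0.96 for CHLM. FD1 changed by -0.06 in the mutant and -2.09 in wild type, and CP12-1 by 0.03 in the mutant and -2.30 in wild type. For the water channels it was 2.7 for GAMMA-TIP and 2.31 for DELTA-TIP, and GAMMA-TIP changed by 0.11 in the mutant and -2.59 in wild type. For lipid transfer it was 2.37 for LTP5 and 2.01 for LTPG2. For wall proteins it was 1.85 for AGP9, 2.05 for AGP18 and 1.34 for PME5.

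For growth genes the difference was 1.71 for HTA10, 1.72 for HTA13, 1.19 for TCP8 and 1.17 for TCP4. It was 1.67 for BBX14 and 1.57 for COL3, 0.78 for GAI, 1.48 for SHR, 1.52 for NF-YC1, 0.93 for WRKY7 and 0.93 for GSTU13. In 2 genes the mutant response lay below that of wild type, by -1.40 for BLUS1 and -1.04 for HSFB2A. BLUS1 changed by -0.35 in the mutant and 1.05 in wild type, and HSFB2A by 1.86 in the mutant and 2.9 in wild type.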

How the results depend on the processing

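The counts of 5376 higher and 6012 lower genes stayed within 1.5 times of themselves under every alternative but 1. Requiring a change beyond 2-fold gave 1243 higher and 1615 lower genes, by that test's own construction. Scaling by library totals gave 7116 and 4504, so 61.2% of calls were higher against 47.2% in the main fit. Leaving out 1 wild type library gave 4586 to 5102 higher and 4881 to 5840 lower genes. The replicate block gave 4839 and 5027, with no pairing by number found among these libraries. Correction for length and GC content gave 6178 and 5794, and 88.8% of higher and 80.8% of lower calls were kept. The 384 genes with a difference between genotypes were 351 with RLE factors and 260 with the length and GC correction. Those were the only alternatives run for that count.

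Of 300 named genes tested under these settings none reversed, 283 kept their call under every setting other than the 2-fold test, and 17 lost it at least once: 5 with the length and GC correction, 7 with library totals, 6 with the block and 12 with 1 library left out. The cause was not tested. With 3 libraries a group, small changes of scarce genes were beyond reach, and counts give relative levels, so a change in total RNA per plant cannot be seen.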
